A study of Mus musculus with 6 samples.

Results

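The mitochondrial ribosome, or mitoribosome, is the particle that translates the few messenger RNAs of the mitochondrial genome inside the organelle. Its RNA parts are made in mitochondria, whereas its proteins are encoded in the nucleus, made in the cytosol and imported. The small subunit reads the messenger RNA and the large subunit joins the amino acids, and almost all of the proteins made are core parts of the respiratory chain, on which the sodium-reabsorbing tubule cells of the kidney depend. The genes described here are those whose symbol is *Mrpl* (large subunit) or *Mrps* (small subunit) followed by a number and at most 1 letter. The rule used no measured value, and it found 78 of the 12125 genes in the deposited table, 49 of the large and 29 of the small subunit. All of them passed the filter on low values, which was 10 normalized counts or more in 3 or more libraries.

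Kidney cells came from *Trf1*+/+ and *Trf1*flox/flox mice, with 3 libraries, from 3 mice, in each genotype. In the *Trf1*flox/flox mice, Cre recombinase removes *Terf1*, the gene of the telomere protein TRF1. Mice of both genotypes carried a tamoxifen-inducible Cre driven by the *Col1a2* promoter, which is active in fibroblasts, and the Katushka reporter KFP, which Cre switches on. Males and females aged 6 to 8 weeks at the start received tamoxifen intraperitoneally 3 times a week for 8 weeks, so the control mice carried active Cre as well. Cells were sorted by the surface integrin CD29 and by KFP, and each library was made from 500 cells by oligo(dT) priming, template switching and PCR amplification. Replicates are numbered 1 to 3 within each genotype, and the numbers pair no mice. The comparison addressed here is how the transcripts of these ribosomal proteins differed between the genotypes, and whether the large and small subunits differed from each other in this respect. Values are normalized counts, that is, reads divided by 1 size factor per library.

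The start sites of these genes were first compared with the RefSeq promoter sequences of GRCm38.p6, from 250 bases before to 50 bases after the start. Of the 78 genes, 69 matched, with 75 sequences. The letters GCGCA, any base, then GCGC, a core of the site bound by NRF1, a regulator of nuclear genes for mitochondria, occurred in 13 of the 69 genes (18.8%), compared with 12.1% of the 9136 genes of the deposited table that matched and 5.19% of all 27025 genes with a promoter sequence. The letters CCGGAAG, bound by ETS-family factors such as GABP (NRF2), occurred in 26 (37.7%), compared with 21.0% and 9.93%. Both strands were searched. Either of these motifs was found in 35 genes (50.7%), compared with 30.3% and 14.0%. The letters AAGATGGCG, bound by YY1, occurred in 8 genes (11.6%), compared with 3.87% and 1.64%. Among 58 cytosolic ribosomal protein genes that matched, the NRF1 letters were in 8.62%, the ETS letters in 41.4%, either of them in 48.3% and the YY1 letters in 5.17%. The CCAAT box (CCAAT) was found in 39.1%, the E-box (CACGTG) in 7.25% and the TATA box (TATAAA) in 7.25%, compared with 43.0%, 12.1% and 9.13% of the genes of the table. The NRF1 letters were in 10 of 43 large subunit genes (23.3%) and 3 of 26 small subunit genes (11.5%), and the ETS letters were in 15 (34.9%) and 11 (42.3%). A match is a description of these letters and not a measured binding site.

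The following 4 promoters are shown because their genes come up again in the results. Each is the 250 bases before the start, 5′ to 3′ on the strand of the gene, and the capitals mark the motif. In the first 3 the capitals are the NRF1 letters, read on either strand, and in the fourth they are the YY1 letters on the opposite strand (CGCCATCTT).
*Mrpl12* (GRCm38.p6, chr11:120484387-120484636, plus strand): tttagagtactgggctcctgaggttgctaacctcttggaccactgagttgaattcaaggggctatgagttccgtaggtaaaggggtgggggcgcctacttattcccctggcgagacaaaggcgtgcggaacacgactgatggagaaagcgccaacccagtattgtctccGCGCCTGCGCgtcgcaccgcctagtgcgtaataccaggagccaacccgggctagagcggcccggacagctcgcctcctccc
*Mrpl45* (GRCm38.p6, chr11:97315466-97315715, plus strand): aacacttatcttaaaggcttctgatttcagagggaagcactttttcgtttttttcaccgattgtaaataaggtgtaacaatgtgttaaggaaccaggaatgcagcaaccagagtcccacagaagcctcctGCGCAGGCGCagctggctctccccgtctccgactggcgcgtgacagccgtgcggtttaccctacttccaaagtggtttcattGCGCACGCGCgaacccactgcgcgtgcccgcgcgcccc
*Mrps21* (GRCm38.p6, chr3:95871515-95871764, minus strand): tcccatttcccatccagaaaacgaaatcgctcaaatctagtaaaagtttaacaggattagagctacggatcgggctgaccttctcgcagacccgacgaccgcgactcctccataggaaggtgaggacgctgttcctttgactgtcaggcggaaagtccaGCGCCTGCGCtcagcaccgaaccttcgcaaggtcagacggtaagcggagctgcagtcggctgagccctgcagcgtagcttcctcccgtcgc
*Mrps11* (GRCm38.p6, chr7:78782881-78783130, plus strand): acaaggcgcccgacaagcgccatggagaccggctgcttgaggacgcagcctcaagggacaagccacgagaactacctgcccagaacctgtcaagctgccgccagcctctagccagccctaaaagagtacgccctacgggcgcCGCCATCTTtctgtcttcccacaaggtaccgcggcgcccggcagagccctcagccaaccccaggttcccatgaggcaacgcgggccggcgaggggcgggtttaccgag
The NRF1 letters begin 81 bases before the start of *Mrpl12*, 120 and 38 bases before that of *Mrpl45*, and 91 bases before that of *Mrps21*. The YY1 letters begin 108 bases before the start of *Mrps11*.

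The genes lie on 17 chromosomes, 11 of them on chromosome 11 (GRCm38). Starts in this paragraph are the outermost 5′ ends of the GENCODE genes, which can differ from the RefSeq starts used for the promoters. Of the 78 genes, 33 (42.3%) start within 1000 bases of the start of a protein-coding gene on the other strand, compared with 1819 of the 10695 protein-coding genes of the table (17.0%). In 18 of the 33 the paired genes lie apart and point away from each other, and in 15 their 5′ ends overlap. *Mrps12* lies apart from *Sars2*, the mitochondrial seryl-tRNA synthetase, with 172 bases between their starts. *Mrpl36* overlaps *Ndufs6*, a complex I subunit, with starts 29 bases apart and 30 shared exonic bases on opposite strands. *Mrpl46* and *Mrps11*, which belong to different subunits, start 412 bases apart and share 173 exonic bases on opposite strands. The GENCODE starts of *Mrpl36* (73328513) and *Mrpl46* (78783531) lie outside their RefSeq promoters (73330759 to 73331058 and 78783040 to 78783339). The library kit did not mark strand, and 17 of the 78 genes share over 10% of their exon length with another gene. Reads from the shared parts may be left uncounted or assigned to the neighbor. The most affected were *Mrpl53* (88.0% shared with *Gm42688*, same strand), *Mrps25* (69.8% with *Nr2c2*) and *Mrps34* (63.4% with *Mapk8ip3* and 37.0% with *Nme3*).

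The labels were checked before the genotypes were compared. The libraries held 10263382 to 12248797 reads on the genes listed. *Terf1* had 0.891, 253 and 235 normalized counts among *Trf1*+/+ and 110.0, 7.65 and 12.4 among *Trf1*flox/flox libraries (log2 fold change -1.04, standard error 2.22, adjusted p = 0.996 from limma). The library labelled *Trf1*+/+ replicate 1 had 1 read of *Terf1*, low for its label, and without it the log2 fold change was -3.38. In that library 34.4% of all genes tested were at 3 reads or fewer, compared with 2.48% to 20.0% in the others. Whether its label is right was not tested. *Trf1*flox/flox replicate 1 kept 110.0 normalized counts of *Terf1*, the most of its group, and without that library the log2 fold change was -2.17. *Trf1*+/+ replicate 1 also stood apart in having 8967 genes above 0, the fewest of the libraries. Its median normalized count over all genes listed was 13.4, compared with 118 to 148 in the others. Of the 8 fibroblast markers chosen, 2 were listed, and *Col1a2* lay between 0 and 1.78 normalized counts. The summed fibroblast markers were 1.78, 1.66 and 94.6 among *Trf1*+/+ and 2.58, 98.4 and 39.3 among *Trf1*flox/flox mice. The 8 proximal tubule markers, all of them listed, summed to 20407, 6522 and 42166 among *Trf1*+/+ and 17759, 31737 and 47367 among *Trf1*flox/flox mice. The sums overlapped, while all 8 markers had a positive fold change (median 1.02 on the log2 scale, and 1.19 without *Trf1*+/+ replicate 1), and none passed the test. The 3 markers of the loop of Henle summed to between 29343 and 117106. *Col1a2*, the gene whose promoter drives the Cre and a defining marker of the labelled fibroblasts, was thus at or near 0, while the markers of tubule cells were abundant. The 3 distal tubule markers summed to 61903, 58062 and 38400.0 among *Trf1*+/+ and 31031, 17263 and 29381 among *Trf1*flox/flox mice, with no overlap. The collecting duct markers summed to between 105 and 17576. Of the markers of endothelium, 1 of 5 was listed, of macrophages 2 of 5, of lymphocytes 1 of 3 and of podocytes 0 of 3. *Trac*, the T cell gene among these, had 0 counts in each *Trf1*+/+ library and 172, 216 and 61.3 among *Trf1*flox/flox libraries. The part that these differences in cell content play in the values below was not tested. In such bulk samples, fewer cells of a type and less RNA per cell cannot be told apart.

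Between the genotypes, none of the 78 mitochondrial ribosomal protein genes passed the test in either direction. Of the 78 genes, 39 had a positive and 39 a negative log2 fold change (*Trf1*flox/flox minus *Trf1*+/+), with a median log2 fold change of 0.00 and a range of -1.40 to 3.18. Over all 9966 genes tested, 5571 were higher and 4395 lower, with a median of 0.20. Rescaling the libraries to the same upper quartile moved the median of all genes to 0.38, and 50 of the 78 genes were then higher with a median of 0.22, so the split followed the scaling. Differences were taken on the scale of log2(normalized count + 1) and were tested with limma. The added 1 shrinks the change of genes with low counts. A library near 0 can still make a difference of mean logs larger than a difference fitted to counts. At an adjusted p under 0.05, 0 of the 78 genes were called (background 0.0%), and the smallest adjusted p among them was 0.996 from limma. At an unadjusted p under 0.05, 0 of the 78 were found in either direction, compared with 4.56% of all genes tested (3.54% higher and 1.01% lower). edgeR and DESeq2, run on the recovered reads, called 0 of the 78, and neither gave any of them an unadjusted p under 0.05. Their background rates at that unadjusted threshold were 1.97% and 4.27%, and at an adjusted p under 0.05 they were 0.0% and 0.617%. Their median log2 fold changes were -0.04 and -0.05 over all genes tested, and -0.03 and -0.05 over the 78 genes. The fold change was smaller than its standard error in 66 of the 78 genes (84.6%), compared with 65.7% of all genes tested.

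The precision sets what could be seen. The median standard error of the log2 fold change over the 78 genes was 0.85 (range 0.72 to 2.84), and the median half-width of the 95% interval was 2.08. These standard errors also draw on the spread of all genes tested. The median SD within a genotype was 2.17 on the log2 scale over those genes and 0.71 over the 78. Even *Mrpl22*, with an SD of 0.125, had a standard error of 0.72. For 0 of the 78 genes did the 95% interval lie within 1 log2 unit of no change. With this test a change of that size could thus be excluded for none of them, including genes with little spread of their own. The plot of fitted differences shows these intervals.

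**Figure D1:**
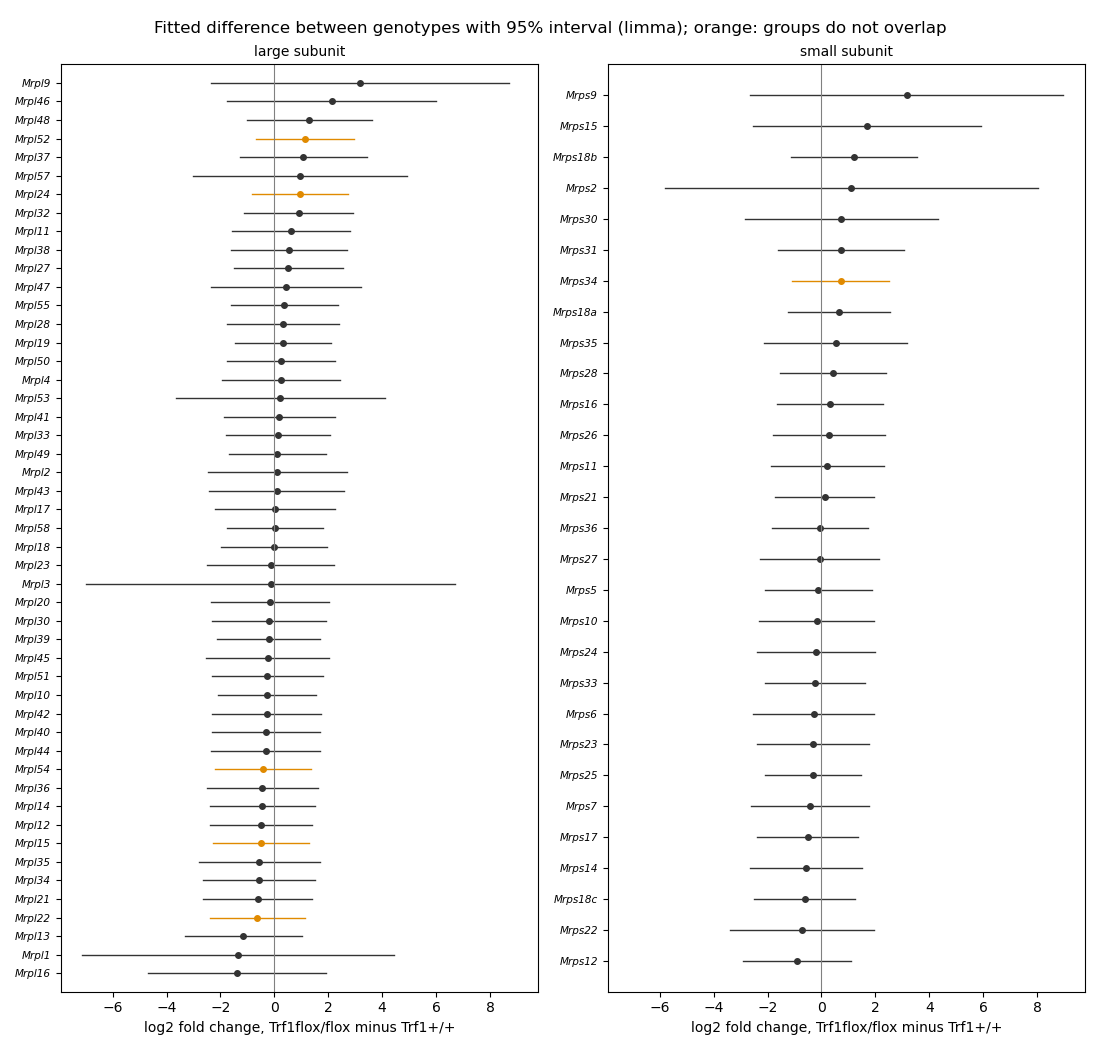
Fitted log2 fold change (*Trf1*flox/flox minus *Trf1*+/+, points) with the 95% interval from limma (lines) for the 49 large subunit genes (left) and the 29 small subunit genes (right), ordered by fold change, on the log2(normalized count + 1) scale. Every interval crosses 0, and the 6 genes in orange are those whose 3 libraries of one genotype all lie beyond the 3 of the other.

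In 6 of the 78 genes (7.69%) the libraries of the genotypes did not overlap, 3 with higher and 3 with lower values in *Trf1*flox/flox mice. Among all genes tested, 8.68% did not overlap, 5.35% higher and 3.33% lower. *Mrpl52*, a large subunit protein without a bacterial counterpart (ENSMUSG00000010406, chromosome 14, 54426909 to 54429756, plus strand), had 139.8, 221 and 155 normalized counts among *Trf1*+/+ and 322, 330.0 and 481 among *Trf1*flox/flox mice. Its log2 fold change was 1.13 (standard error 0.75, 95% interval -0.68 to 2.95, adjusted p = 0.996 from limma), the smallest unadjusted p of the 78 genes at 0.178. *Mrpl24*, the counterpart of bacterial L24 (ENSMUSG00000019710, chromosome 3, 87919506 to 87923672, plus strand), had 366, 375 and 259 compared with 578, 754 and 582 normalized counts (log2 fold change 0.94, standard error 0.73). It shares 26.3% of its exon length with *Rrnad1* on the opposite strand. All 3 *Trf1*flox/flox libraries of both genes lay above all 3 *Trf1*+/+ libraries. *Mrps34*, which is needed to keep the small subunit RNA stable (ENSMUSG00000038880, chromosome 17, 24895116 to 24897502, plus strand), had 172, 219.6 and 299 compared with 389, 326 and 391 normalized counts (log2 fold change 0.71, standard error 0.74). Its exons overlap 2 neighboring genes, as given above.

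The 3 genes with lower values and no overlap were all of the large subunit, which holds 49 of the 78 genes. *Mrpl22*, a protein at the tunnel through which new chains leave the ribosome (ENSMUSG00000020514, chromosome 11, 58171661 to 58179565, plus strand), had 824, 656 and 788 normalized counts among *Trf1*+/+ and 494, 491 and 475 among *Trf1*flox/flox mice. Its log2 fold change was -0.63 (standard error 0.72, 95% interval -2.38 to 1.12). It had the smallest spread between libraries of a genotype of the 78 genes (0.125 on the log2 scale), while limma's standard error also draws on the spread of all other genes. *Mrpl15*, the counterpart of bacterial L15 (ENSMUSG00000033845, chromosome 1, 4773206 to 4785739, minus strand), had 1244, 1187 and 1168 compared with 1019, 920.2 and 656 normalized counts (log2 fold change -0.50, standard error 0.73). *Mrpl54*, found in mitochondrial ribosomes but not in those of bacteria (ENSMUSG00000034932, chromosome 10, 81264713 to 81266934, minus strand), had 2038, 1182 and 1402 compared with 1114, 1118 and 1121 (log2 fold change -0.42, standard error 0.74). The 3 *Trf1*flox/flox libraries of *Mrpl54* had an SD of 3.38 normalized counts and lay just below the lowest *Trf1*+/+ library.

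The largest fitted differences were mostly in genes with a wide spread between libraries. *Mrpl9*, the counterpart of bacterial L9 (ENSMUSG00000028140, chromosome 3, 94443318 to 94451130, plus strand), had 0, 76.2 and 13.8 normalized counts among *Trf1*+/+ and 308, 5.46 and 427 among *Trf1*flox/flox mice (log2 fold change 3.18, standard error 2.27). *Mrps9*, the counterpart of bacterial S9 (ENSMUSG00000060679, chromosome 1, 42851233 to 42905683, plus strand), had 0.891, 1059 and 305 compared with 795, 1153 and 486 (log2 fold change 3.17, standard error 2.38). *Mrpl46*, a mitochondria-specific large subunit protein (ENSMUSG00000030612, chromosome 7, 78775236 to 78783531, minus strand), had 22.3, 1259 and 565 compared with 1077, 1180.3 and 1072 (log2 fold change 2.12, standard error 1.59). In all 3 genes the lowest value was in the library labelled *Trf1*+/+ replicate 1, and the genotypes overlapped. *Mrps11*, whose 5′ end overlaps that of *Mrpl46* on the other strand and whose promoter is shown above (ENSMUSG00000030611, chromosome 7, 78783119 to 78792989, plus strand), had 750.0, 206 and 305 compared with 474, 315 and 499.6 (log2 fold change 0.22, standard error 0.86), and was named for its position after its values were seen. Unlike *Mrpl46*, it had its highest value in that library. Without this library the log2 fold changes of *Mrpl9*, *Mrps9* and *Mrpl46* were 1.49, 0.42 and 0.39. With all libraries they were 3.03, 0.73 and 0.78 in edgeR and 3.04, 0.83 and 0.85 in DESeq2. *Mrpl48*, also mitochondria-specific (ENSMUSG00000030706, chromosome 7, 100545751 to 100608301, minus strand), had 217, 1235 and 303 normalized counts among *Trf1*+/+ and 1299, 1068 and 879 among *Trf1*flox/flox mice (log2 fold change 1.30, standard error 0.95), where *Trf1*+/+ replicate 2 lay among the *Trf1*flox/flox values. On the other side, *Mrpl16*, the counterpart of bacterial L16 (ENSMUSG00000024683, chromosome 19, 11770391 to 11774960, plus strand), had 1571, 277 and 542 compared with 42.1, 619 and 484 (log2 fold change -1.40, standard error 1.36). *Mrpl13*, the counterpart of bacterial L13 (ENSMUSG00000022370, chromosome 15, 55534094 to 55557748, minus strand), had 2491, 819 and 1054 compared with 885, 310.4 and 704 (log2 fold change -1.16, standard error 0.89). The genotypes overlapped for both, and without *Trf1*flox/flox replicate 1 the log2 fold change of *Mrpl16* was -0.17.

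Among the proteins that read the messenger RNA, *Mrps12*, the counterpart of bacterial S12 at the decoding center (ENSMUSG00000045948, chromosome 7, 28739641 to 28741820, minus strand), had 994, 1140.1 and 1012 normalized counts among *Trf1*+/+ and 481, 327 and 1096 among *Trf1*flox/flox mice. Its log2 fold change of -0.91 (standard error 0.83) was the lowest of the small subunit, and *Trf1*flox/flox replicate 3 lay between 2 of the *Trf1*+/+ libraries. *Mrps5*, whose bacterial counterpart S5 bears on the accuracy of reading (ENSMUSG00000027374, chromosome 2, 127587222 to 127606829, plus strand), had 487, 476 and 209.9 compared with 497, 328 and 238 (log2 fold change -0.11, standard error 0.82). *Mrps7*, a protein of the head of the small subunit (ENSMUSG00000046756, chromosome 11, 115603925 to 115608036, plus strand), had 2082, 580.0 and 889.8 compared with 455, 768 and 1234 (log2 fold change -0.44, standard error 0.90). The genotypes overlapped for these 3 genes. *Mrps22*, a small subunit protein specific to mitochondria (ENSMUSG00000032459, chromosome 9, 98588730 to 98601660, minus strand), had 125, 506 and 589 compared with 71.3, 416 and 277, with 1 library of each genotype far below the others (log2 fold change -0.72, standard error 1.10). *Mrps18a*, *Mrps18b* and *Mrps18c* are 3 copies related to bacterial S18, of which a given ribosome uses *Mrps18b* and *Mrps18c* in the small and *Mrps18a* in the large subunit. *Mrps18c* (ENSMUSG00000016833, chromosome 5, 100798627 to 100804471, plus strand) had 1123, 654 and 521 compared with 375, 501 and 555 normalized counts (log2 fold change -0.63, standard error 0.77), and *Mrps18a* (ENSMUSG00000023967, chromosome 17, 46110986 to 46128910, plus strand) had 787, 527 and 613 compared with 661, 1473 and 1021 (log2 fold change 0.65, standard error 0.77). *Mrps18b* (ENSMUSG00000024436, chromosome 17, 35910379 to 35916389, minus strand), given here to complete the family after its values were seen, had 92.6, 159.9 and 26.6 compared with 117, 204 and 207 (log2 fold change 1.20, standard error 0.96), and it shares 30.5% of its exon length with the antisense gene *Gm16279*. The fold change was positive for *Mrps18a* and *Mrps18b* and negative for *Mrps18c*, and it was larger than its standard error for *Mrps18b* alone of these 3. None of them passed the test. *Mrps30*, like *Mrps18a* named for the small but built into the large subunit (ENSMUSG00000021731, chromosome 13, 118378381 to 118387252, minus strand), had 17.8, 449 and 368 compared with 496, 240.4 and 119 (log2 fold change 0.74, standard error 1.47).

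Among the proteins of the large subunit with a known place, *Mrpl12* forms the stalk that receives translation factors (ENSMUSG00000039640, chromosome 11, 120484613 to 120489065, plus strand). It had 3948, 2256 and 2536 normalized counts among *Trf1*+/+ and 1361, 2704 and 2218 among *Trf1*flox/flox mice (log2 fold change -0.49, standard error 0.78). *Mrpl10*, the base of that stalk (ENSMUSG00000001445, chromosome 11, 97041560 to 97049213, plus strand), had 391, 251 and 421 compared with 351, 237 and 276 (log2 fold change -0.28, standard error 0.75). *Mrpl45*, which helps hold the ribosome at the inner membrane (ENSMUSG00000018882, chromosome 11, 97315716 to 97329920, plus strand), had 2574, 944 and 469 compared with 1095, 604 and 1018 (log2 fold change -0.25, standard error 0.94). The values overlapped between genotypes for all 3, and the highest value of *Mrpl12* and of *Mrpl45*, whose promoters with the NRF1 letters are shown above, was in *Trf1*+/+ replicate 1. *Mrpl58*, a peptidyl-tRNA hydrolase that rescues stalled ribosomes (ENSMUSG00000018858, chromosome 11, 115403752 to 115412674, plus strand), had 1015, 979 and 744 compared with 851, 1114 and 792 normalized counts, a log2 fold change of 0.01 with a standard error of 0.73. It was one of the least variable genes of the group. *Mrpl3*, the counterpart of bacterial L3 near the site of peptide bond formation (ENSMUSG00000032563, chromosome 9, 105053239 to 105079888, plus strand), had 1.78, 260.2 and 129 compared with 324, 0 and 216 normalized counts. It was at 0 or 2 reads in 1 library of each genotype and between 129 and 324 normalized counts in the other 4, and its log2 fold change of -0.14 had a standard error of 2.82.

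**Figure D2:**
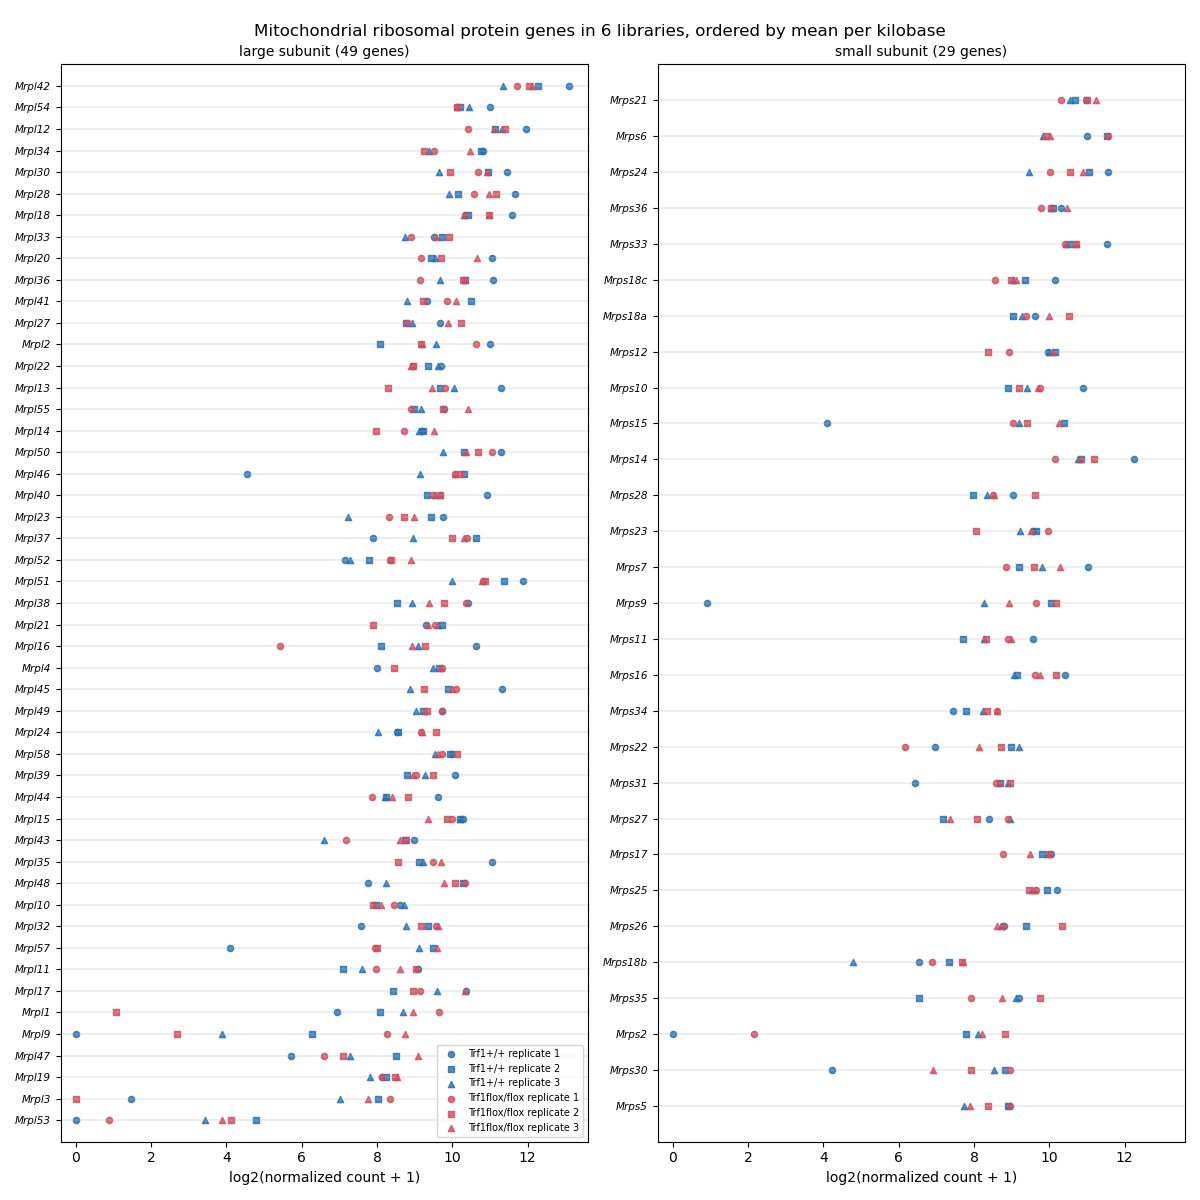
Log2(normalized count + 1) of each of the 49 large subunit genes (left) and 29 small subunit genes (right) in the 6 libraries, with *Trf1*+/+ in blue, *Trf1*flox/flox in red and the marker shape giving the replicate. Most genes have all 6 libraries close together, and the isolated points at the left are mostly *Trf1*+/+ replicate 1, with a few of *Trf1*flox/flox replicates 1 and 2.

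To compare levels between genes, the mean over the 6 libraries was divided by the length of the longest principal transcript. On this measure the highest level was that of *Mrpl42* (ENSMUSG00000062981, chromosome 10, 95480805 to 95501940, minus strand), at 7069 ± 3229 normalized counts per kilobase (SD, n = 6). The rank depends on the length chosen. The principal transcript of *Mrpl42* has 666 bases while its exons together have 3682, and for *Mrps21* these are 488 and 739. The next in the large subunit were *Mrpl54*, at 2201 ± 603, and *Mrpl12*, at 1903 ± 643. The 3 highest of the small subunit were *Mrps21* (ENSMUSG00000054312, chromosome 3, 95862634 to 95871519, minus strand), at 3720.1 ± 870.1, *Mrps6* (ENSMUSG00000039680, chromosome 16, 92058270 to 92112227, plus strand), at 2140.1 ± 1171, and *Mrps24* (ENSMUSG00000020477, chromosome 11, 5703983 to 5715680, minus strand), at 1714 ± 829.7. *Mrps21*, *Mrps6* and *Mrps24* are the counterparts of bacterial S21, S6 and S3, and *Mrpl42* has none. Per kilobase of principal transcript, *Mrpl42* and *Mrps21* stood above the other 4 by more than their own SDs, and those 4 lay within one another's SD. *Mrpl42* had 8768, 4920.0 and 2618 normalized counts among *Trf1*+/+ and 3335, 4212 and 4396 among *Trf1*flox/flox mice (log2 fold change -0.29, standard error 0.83). *Mrps21* had 1989, 1652 and 1507 compared with 1256, 2059 and 2429.8 (log2 fold change 0.11), *Mrps6* had 2026, 2935 and 906 compared with 3011, 958 and 1027 (-0.29), and *Mrps24* had 3013, 2109 and 708 compared with 1031, 1481 and 1893 (-0.21). All of these overlapped between genotypes. The lowest level was that of *Mrpl53*, at 16.2 ± 14.4 normalized counts per kilobase, followed by *Mrpl3*, at 39.1 ± 34.0. *Mrpl53* shares 88.0% of its exon length with *Gm42688*, so its reads may be undercounted. The median level was 600.0 normalized counts per kilobase in the large subunit and 446 in the small subunit, with quartiles of 233 and 940 and of 168 and 953. The levels of the 78 transcripts spanned 16.2 to 7069 normalized counts per kilobase. *Mrps36* meets the rule by its symbol, although its product is now known as a part of the 2-oxoglutarate dehydrogenase complex. It had 1265, 1087 and 1046 normalized counts compared with 869, 1052 and 1418 (log2 fold change -0.05), with overlap between the genotypes.

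The difference between the genotypes was next compared between the large and small subunits. In the large subunit the log2 fold change was positive in 25 genes and negative in 24 (median 0.01), and in the small subunit it was positive in 14 and negative in 15 (median -0.05). The difference between these medians of fold change was 0.06. Counting *Mrps30* and *Mrps18a* with the large subunit gave a difference of 0.08, edgeR gave 0.02 and DESeq2 -0.0546. For scale, the median log2 level of the large minus that of the small subunit had an SD of 0.28 between libraries of a genotype. That SD is of levels in single libraries and not of fold changes, so it is no test of the 0.06. The summed normalized counts of the large subunit were 65876, 43130.0 and 31776 among *Trf1*+/+ and 39712, 40273 and 46639 among *Trf1*flox/flox mice. Those of the small subunit were 30945, 23907 and 19094 among *Trf1*+/+ and 19783, 24139 and 23516 among *Trf1*flox/flox mice. The ratio of the sums was 2.13, 1.80 and 1.66 among *Trf1*+/+ and 2.01, 1.67 and 1.98 among *Trf1*flox/flox mice, with means of 1.87 ± 0.24 (SD, n = 3) and 1.89 ± 0.19 (SD, n = 3). The ratio overlapped between the genotypes and was highest in *Trf1*+/+ replicate 1. Since the sums are not divided by length, the ratio can be compared between libraries but not read as a ratio of molecules. The 5 genes with the highest counts held 18.6% to 25.4% of the sum of all 78.

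**Figure D3:**
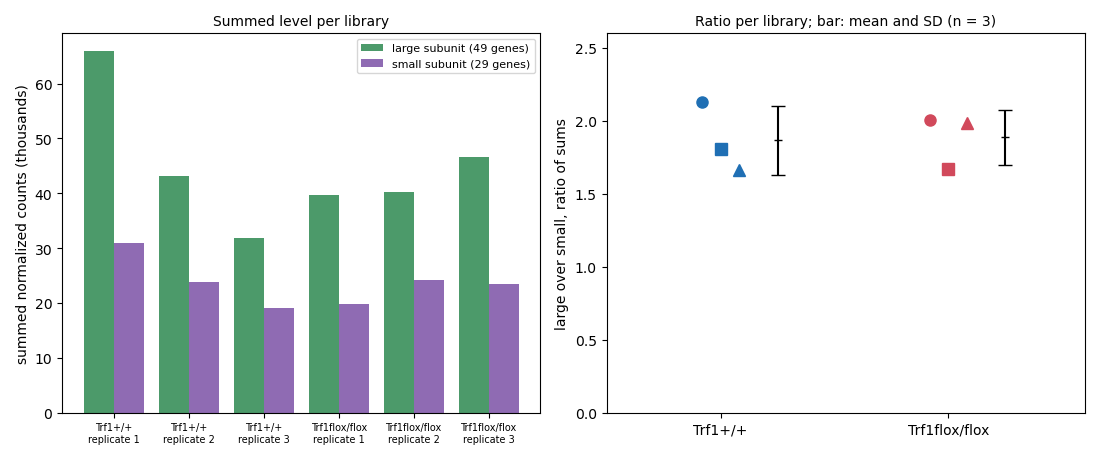
Left, summed normalized counts (axis in units of 1000) of the 49 large subunit and 29 small subunit genes in each of the 6 libraries. Right, the ratio of the sums in each library (points, with the mean and SD of 3 libraries beside them), between 1.66 and 2.13. The ratio overlaps between *Trf1*+/+ and *Trf1*flox/flox mice.

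The sum of all 78 genes was 96820.4, 67037 and 50869.9 among *Trf1*+/+ and 59495, 64412 and 70154 among *Trf1*flox/flox mice. The highest sum was in *Trf1*+/+ replicate 1, above the 3 *Trf1*flox/flox libraries, and the lowest was in *Trf1*+/+ replicate 3, below them. Of the 78 genes, 37 (47.4%) had their highest value in *Trf1*+/+ replicate 1, compared with 27.4% of all genes tested, and 16 (20.5%) had their lowest value there, compared with 38.2%. The highest value was in *Trf1*+/+ replicates 2 and 3 for 7 (8.97%) and 3 (3.85%) of the genes, compared with 16.7% and 12.5% of all genes tested. It was in *Trf1*flox/flox replicates 1, 2 and 3 for 8 (10.3%), 11 (14.1%) and 12 (15.4%), compared with 16.6%, 18.6% and 8.05%. The library with 1 read of *Terf1* and the lowest median over all genes thus had the highest normalized counts of these genes. As a share of the normalized counts of all genes listed, the 78 genes took 88.7, 69.0 and 50.3 per 10000 among *Trf1*+/+ and 65.9, 52.2 and 99.2 per 10000 among *Trf1*flox/flox mice, and on this scale *Trf1*flox/flox replicate 3 was the highest. The totals include the messenger RNAs encoded in mitochondria, so the share depends on these as well. They summed to 802025 of 7072494 normalized counts in *Trf1*flox/flox replicate 3, the lowest sum. In *Trf1*flox/flox replicate 2, the highest, they summed to 4902627 of 12333146. Without *Trf1*+/+ replicate 1, the fold change was positive in 49 genes and negative in 29, with medians of 0.14 over all 78 genes, 0.20 in the large and 0.07 in the small subunit, compared with -0.02 over the 9699 genes that then passed the filter. The genotypes then did not overlap in 12 genes with higher values (15.4%, background 9.15%) and 5 with lower values (6.41%, background 8.74%). The 12 were *Mrpl11*, *Mrpl24*, *Mrpl28*, *Mrpl38*, *Mrpl49*, *Mrpl50*, *Mrpl52*, *Mrps11*, *Mrps16*, *Mrps18a*, *Mrps28* and *Mrps34*, and the 5 were *Mrpl15*, *Mrpl21*, *Mrpl22*, *Mrpl54* and *Mrps22*. These lists include genes chosen after their values were seen.

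The spread between libraries of a genotype was set beside that of other genes. The median SD within a genotype was 0.71 on the log2 scale over the 78 genes and 2.17 over all genes tested. To compare like with like, 62 of the 78 genes and 3258 other genes with a mean between 294 and 1772 normalized counts were set side by side. The median SD was 0.71 for the former and 1.05 for the latter. An SD under 1 was found in 52 of the 62 genes (83.9%) and in 47.5% of the others. In this range, 2 of the 62 genes (3.23%) were at 3 reads or fewer in some library, compared with 15.3% of the others. These shares are descriptions of these libraries, with no test.

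A small number of the genes dropped out of single libraries. The floor of a library was set at 3 reads, which covers counting error only because amplified reads without molecular identifiers are not independent molecules. In *Trf1*+/+ replicate 1, 5 of the 78 genes (6.41%) were at the floor, compared with 34.4% of all genes tested, and in *Trf1*flox/flox replicate 2 it was 2 (2.56%), compared with 20.0%. *Trf1*flox/flox replicate 1 had 1, and the other 3 libraries had 0. Over all libraries 6 of the 78 genes were at the floor at least once (background 50.2%). Besides *Mrpl3*, *Mrpl9* and *Mrps9*, described above, these were *Mrps2*, *Mrpl1* and *Mrpl53*. *Mrps2*, the counterpart of bacterial S2, had 0, 218 and 272 normalized counts among *Trf1*+/+ and 3.44, 455 and 298 among *Trf1*flox/flox mice. *Mrpl1*, the counterpart of bacterial L1, had 121, 270.1 and 414 compared with 807, 1.09 and 495. *Mrpl53*, a mitochondria-specific protein whose exons lie largely within another gene, had 0, 26.5 and 9.85 compared with 0.859, 16.4 and 13.8. Such values occurred in both genotypes, and 9 of the 78 genes had an SD over 2 on the log2 scale.

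**Figure D4:**
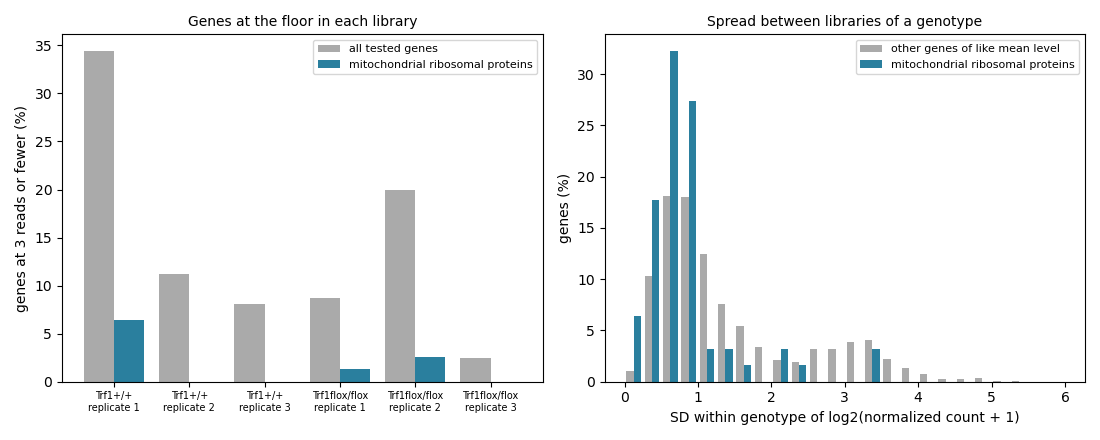
Left, share of genes at 3 reads or fewer (percent) in each library, for all 9966 genes tested (gray) and the 78 mitochondrial ribosomal protein genes (blue). Right, distribution of the SD within genotype of log2(normalized count + 1) for 62 of the 78 genes (blue) and 3258 other genes of like mean level (gray), with 83.9% and 47.5% below an SD of 1.

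Other parts of the mitochondrial translation machinery were read from lists of known genes, and none of their genes passed an adjusted p under 0.05 in limma. The 5 further mitoribosome proteins without an *Mrpl* or *Mrps* symbol had 1 higher and 4 lower means, with a median log2 fold change of -0.58 (-0.31 without *Trf1*+/+ replicate 1, with 2 higher and 3 lower). *Dap3*, a GTP-binding protein of the small subunit, had 759, 1621 and 596 normalized counts among *Trf1*+/+ and 523, 62.3 and 545 among *Trf1*flox/flox mice, with no overlap (log2 fold change -1.78, standard error 1.15). *Gadd45gip1*, of the large subunit, had 812, 650.4 and 338 compared with 237, 281 and 432 (-0.88), and *Ptcd3*, of the small subunit, had 714, 639.7 and 289.7 compared with 584, 835 and 482 (0.28). The ribosomal RNAs are themselves made in mitochondria. *mt-Rnr1*, the RNA of the small subunit, had 119169.9, 173913 and 123610.1 normalized counts compared with 179213, 388425 and 69423 (log2 fold change 0.31, standard error 0.93). *mt-Rnr2*, the RNA of the large subunit, had 290603, 471300.1 and 326655 compared with 339432, 782528 and 166036 (-0.01, standard error 0.90). Both were highest in *Trf1*flox/flox replicate 2 and lowest in *Trf1*flox/flox replicate 3, a wider span than that of the protein sums in the same libraries.

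Of the 28 genes for mitoribosome assembly, 26 passed the filter, 15 with higher and 11 with lower values (median log2 fold change 0.74). This median was -0.35 without *Trf1*+/+ replicate 1 and -0.41 with edgeR, where 11 of the 26 were higher. *Mrm2*, a methyltransferase of the large subunit RNA, had 0, 0.829 and 81.8 compared with 49.8, 593 and 82.7 normalized counts (log2 fold change 4.68, standard error 1.97). *Rpusd3*, a protein of mitochondria related to pseudouridine synthases, had 10.7, 0 and 78.8 compared with 67.9, 99.4 and 115 (3.25, standard error 1.65). The genotypes overlapped for both. *Mterf4*, which acts with a methyltransferase in assembling the ribosome, had 1129, 51.4 and 116 compared with 125, 0 and 0 (-5.25, standard error 2.28). *Dhx30*, an RNA helicase, had 1304, 556 and 347 compared with 297, 5.46 and 171 (-3.19, standard error 1.63), with no overlap. The median SD within a genotype was 2.65 in this list.

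Of 20 translation factors and related proteins, 19 were listed and 17 passed the filter, 9 with higher and 8 with lower values (median log2 fold change 0.08), and without *Trf1*+/+ replicate 1 the split was 7 to 10 (median -0.31). The number higher was 11 with upper quartile scaling and 6 with DESeq2. *Tufm*, the elongation factor that brings tRNAs to the mitoribosome, had 350.0, 376 and 236 normalized counts among *Trf1*+/+ and 684, 475 and 451 among *Trf1*flox/flox mice, with no overlap (log2 fold change 0.74, standard error 0.75). *Metap1d*, which trims the first methionine, had 8.91, 48.1 and 546 compared with 894, 432 and 223 (2.78), *Lrpprc*, which keeps mitochondrial messenger RNAs stable, had 1272, 652 and 439 compared with 296, 2.19 and 639 (-3.08), and *Guf1*, a translation GTPase, had 237, 877 and 1619 compared with 386, 328 and 161 (-1.35). The last 3 overlapped between genotypes. Of 19 aminoacyl-tRNA synthetases that act in mitochondria, 18 were listed and 16 passed the filter, 10 with higher and 6 with lower values (median 0.87, and -0.24 without *Trf1*+/+ replicate 1), and 12 were higher with upper quartile scaling. *Gars*, which serves both the cytosol and mitochondria, had 1.78, 1.66 and 128 compared with 132, 432 and 502 (log2 fold change 4.96, standard error 1.73, adjusted p = 0.938 from limma), with no overlap. *Ears2* had 0.891, 48.9 and 0.985 compared with 19.8, 339.9 and 33.1 (3.44), *Kars* had 1658, 334 and 395 compared with 223, 381 and 458 (-0.83), and *Rars2* had 974, 312 and 694 compared with 154, 357 and 750.4 (-0.78). These synthetases, for glutamate, lysine and arginine, overlapped between genotypes.

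The messenger RNAs that mitoribosomes translate, the 13 encoded in mitochondria, all had lower means on the log scale in *Trf1*flox/flox mice. Their median log2 fold change was -0.27 (-0.53 without *Trf1*+/+ replicate 1, with all 13 still lower), and each fold change was smaller than its standard error. The direction depended on the scaling, with 8 of the 13 higher with DESeq2, 5 with upper quartile scaling and 4 with edgeR. *mt-Nd5*, a subunit of complex I, had 112526, 169966 and 173008 normalized counts among *Trf1*+/+ and 117362, 252760.2 and 42583 among *Trf1*flox/flox mice (-0.46), and *mt-Atp8*, of the ATP synthase, had 94429, 141584 and 250019.7 compared with 153249.6, 260353 and 34886 (-0.42). The genotypes overlapped for both. The cytosolic ribosomal proteins, which build the ribosomes of the cytosol, had 79 genes listed and tested, 26 with higher and 53 with lower values (median -0.10). Without *Trf1*+/+ replicate 1 the split was 40 to 39, and with upper quartile scaling 51 were higher. *Rps9* had 1919, 1973 and 1196 compared with 2273, 3022 and 2698 normalized counts, with no overlap (0.68), and *Rps10* had 41.9, 147 and 253 compared with 212, 266 and 269 (1.08). *Rpl22* had 446, 577 and 205 compared with 184, 149.7 and 356 (-0.81), and *Rpl3* had 2767, 1385 and 1802 compared with 2196, 556 and 1396 (-0.67). The median SD within a genotype was 0.49 in the cytosolic and 0.71 in the mitochondrial ribosomal proteins, and 0 of the cytosolic genes were at the floor in any library.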

How the data were processed

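The authors aligned reads with TopHat2 2.0.10 (Bowtie 1.0.0, SAMtools 0.1.19), counted them with HTSeq 0.6.1 on GENCODE genes of GRCm38 and deposited normalized counts, a signal in which the reads of a gene are divided by a size factor (the submitters' processing notes name DESeq2, and GRCm39 as the build). All values (100.0%, tolerance 1e-06) were whole multiples of 1 read. No test per gene is stated in the paper's methods. Here, log2(value + 1) was tested with limma 3.58.1 (R 4.3.3) over genes reaching 10 normalized counts in 3 or more libraries, with Benjamini-Hochberg adjustment. edgeR 4.0.16 (quasi-likelihood test) and DESeq2 1.42.0 used the recovered reads. Coordinates, lengths and overlaps are from GENCODE on GRCm38. Groups are those of the labels. The method was tested on simulated counts with the same dispersion for every gene and no added dropout. That test does not show how the method performs at the spread of these libraries.

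Members, lists and alternatives were chosen with earlier results of these data known. Named were *Terf1*, the 5 members with the smallest p in each direction, those with no overlap, the 3 highest per kilobase of each subunit, 12 members fixed by role, the mitochondrial ribosomal RNAs and, in each other list, the 2 smallest p in each direction. The study gives 3 mice per genotype, and the labels give no batch.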

Additional observations from a re-analysis of the deposited data

How the results depend on the processing

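The 13 alternatives were pseudocounts of 0.5 and 5, no filter, a mean of at least 50 normalized counts, upper quartile scaling, edgeR, DESeq2 and each of the 6 libraries left out. Under all of them 0 of the 78 genes passed an adjusted p under 0.05. Of the 364 fold changes of the 28 named ribosomal protein genes, 338 kept their sign, and 17 genes never changed it. The settings that change only the filter (no filter, a mean of at least 50 normalized counts) leave each fold change as it was. They are among the 364 but could not change a sign. Upper quartile scaling moved the median of all genes tested from 0.20 to 0.38 and that of the 78 genes from 0.00 to 0.22, with 50 of them higher. The others gave medians for the 78 genes of -0.05 (DESeq2), -0.03 (edgeR) and, with a library left out, -0.14 to 0.14. Over all genes tested the medians were -0.05 (DESeq2) and -0.04 (edgeR). The sign changed for *Mrpl3* with DESeq2 (0.46), edgeR (0.44), a pseudocount of 5 (0.20) and upper quartile scaling (0.0249), for *Mrps24* (0.00157) and *Mrps5* (0.10) with upper quartile scaling, and for *Mrps30* with edgeR (-0.0451), and the cause was not tested.

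With a library left out, the log2 fold change ranged from -2.16 to 2.54 for *Mrpl3*, -0.73 to 0.14 for *Mrpl42*, -0.83 to 0.40 for *Mrpl45*, -0.14 to 0.11 for *Mrpl58*, -0.0837 to 0.39 for *Mrps21*, -1.43 to 0.0236 for *Mrps22*, -0.82 to 0.22 for *Mrps24*, -0.74 to 1.55 for *Mrps30*, -0.51 to 0.14 for *Mrps5*, -0.82 to 0.0847 for *Mrps6* and -0.85 to 0.0733 for *Mrps7*. That of *Terf1* ranged from -3.38 to 0.15 and changed sign without *Trf1*+/+ replicate 2 (0.15) and replicate 3 (0.10), which leave the library labelled *Trf1*+/+ replicate 1 in the group. Without changing sign, *Mrpl16* ranged from -2.10 to -0.17, *Mrpl9* from 1.49 to 5.12, *Mrps9* from 0.42 to 4.99 and *Mrpl46* from 0.39 to 3.27. The difference of the subunit medians was -0.0546 with DESeq2 and, with a library left out, ranged from -0.28 (without *Trf1*flox/flox replicate 3) to 0.12. With a library left out, 9 to 17 of the 78 genes did not overlap, since fewer libraries overlap less often. The 17 were without *Trf1*+/+ replicate 1, as 12 higher (15.4%, background 9.15%) and 5 lower (6.41%, background 8.74%). With upper quartile scaling the number was 4. For that scaling and the other libraries left out, the share over all genes was not computed. Those counts are therefore not read as a result. The number with an unadjusted p under 0.05 ranged from 0 to 1 (1 without *Trf1*flox/flox replicate 2). The gene was *Mrpl9* (unadjusted p = 0.048 from limma), which was at 0 in *Trf1*+/+ replicate 1. With a library left out, the share of all genes under that threshold was not computed either. This count is likewise not read as a result. No paired analysis was possible because the labels give no replicate numbers. The libraries held 10263382 reads or more each, and the effect of depth was not tested.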
